A study of Mus musculus with 6 samples.

Results

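The genes for the ligands and receptors of platelet-derived growth factor (PDGF) were examined in endothelial cells sorted from mouse mammary glands that carried a tumor oncogene, with and without Ets2 deletion in fibroblasts. The 6 genes were the ligands Pdgfa, Pdgfb, Pdgfc and Pdgfd and the receptors Pdgfra and Pdgfrb, of 18193 genes that the arrays could be assigned to. They were taken by name, through every probe set (a group of short probes against 1 transcript) that the platform annotation ties to a single gene of the family. This gave 14 probe sets of 45037 tested. The brightest probe set by mean signal stood for its gene, and the other 8 are given beside it.

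PDGF ligands are secreted dimers that bind receptor tyrosine kinases on neighboring cells. In growing vessels, endothelial cells make PDGF-B, which draws pericytes carrying PDGFRβ (Pdgfrb) to the vessel wall, whereas PDGFRα (Pdgfra) is typical of fibroblasts and other mesenchymal cells. PDGF-A and PDGF-C bind mainly PDGFRα, PDGF-B binds both receptors, and PDGF-D binds mainly PDGFRβ. PDGF-C and PDGF-D are released as latent proteins and need a protease to free the growth factor domain.

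Each group held 3 arrays of CD31-sorted cells, 1 per biological replicate, from 9-week-old FVB/N mice. The Ets2-deleted group had the genotype PyMT;Fsp-Cre;Ets2db/loxP and the control group PyMT;Ets2db/loxP. All mice therefore carried the PyMT oncogene, 1 Ets2db allele, which lacks the DNA-binding domain in every cell, and 1 loxP allele. Fsp-Cre is driven by the promoter of Fibroblast Specific Protein 1 (S100a4) and removes the loxP allele where that promoter is active, and fibroblasts, not the sorted endothelial cells, were the cells it was meant for. The comparison asks how the transcripts of mammary endothelial cells differ when the neighboring fibroblasts lack Ets2. Below, Ets2-deleted cells are the endothelial cells sorted from mice of the Ets2-deleted group. The name does not mean that these sorted cells lost Ets2. For the control samples 1 label denies an oncogene, against their titles and genotype, and the genotype was followed.

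Values are log2 signals, and every difference is Ets2-deleted minus control on that scale, so that 1 unit is a factor of 2. The brightness of a probe set depends on its probes, and levels are compared between arrays and not between genes. No probe set of 45037 passed an adjusted p of 0.05 in limma (0%), and the smallest adjusted p was 0.9999. A change of more than 2-fold together with an unadjusted p under 0.05 was met by 58 probe sets (0.129%), none of them in the family. Ets2 itself differed by 0.02. The endothelial markers Pecam1 (CD31) and Cdh5 (VE-cadherin) were bright on every array, at 11.93, 11.27 and 11.88 in Ets2-deleted and 11.58, 11.49 and 10.83 in control cells for Pecam1. Markers of other cells were also measured above the median signal of 7.03, with the mural marker Rgs5 at 13.38 to 13.96 over the 6 arrays and the epithelial marker Epcam at a mean of 12.46 in Ets2-deleted and 12.35 in control cells. Epcam was the 1 of 6 epithelial markers with a higher mean in the Ets2-deleted group, and the other 5 had lower means (list median −0.17). Control replicate 3 had the largest 3' to 5' difference of the array's own RNA quality probes, at 1.31 for Gapdh and 1.67 for beta-actin, against 0.75 to 1.01 and 0.99 to 1.29 on the other 5 arrays.

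Among the 6 genes, Pdgfra was lower in the Ets2-deleted group on every array, and the other 5 genes overlapped between the groups. Pdgfra was also the only member with an unadjusted p under 0.05 in limma, and neither it nor any other member passed after adjustment. Over all genes, the arrays of the Ets2-deleted group lay wholly below those of the control group for 492 genes (2.70%) and wholly above for 612 (3.36%), and 326 genes had an unadjusted p under 0.05 (1.79%). The mean of Pdgfb was higher by 0.49, and those of Pdgfa, Pdgfc, Pdgfd and Pdgfrb differed by 0.22 or less in either direction.

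The promoters of Pdgfra and its ligand Pdgfc are shown here because both genes had lower means in the Ets2-deleted group. A further reason was that the study concerns an Ets factor, whose family binds a GGAA core. For Pdgfc the groups overlapped, and its difference of −0.22 was −0.02 without Ets2-deleted replicate 1. Each sequence runs from 250 bases before to 50 bases after the annotated start on the gene's own strand, from RefSeq on GRCm38.p6, at chr5:75152001-75152300 (plus strand) for Pdgfra and chr3:81036166-81036465 (plus strand) for Pdgfc. Capitals mark GGAA and its reverse complement TTCC.
Pdgfra: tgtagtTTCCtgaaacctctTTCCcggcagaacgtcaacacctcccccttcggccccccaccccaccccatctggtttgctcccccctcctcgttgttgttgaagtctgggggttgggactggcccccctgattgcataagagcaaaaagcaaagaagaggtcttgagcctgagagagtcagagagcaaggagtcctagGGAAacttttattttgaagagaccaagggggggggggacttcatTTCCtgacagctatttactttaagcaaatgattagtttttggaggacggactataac
Pdgfc: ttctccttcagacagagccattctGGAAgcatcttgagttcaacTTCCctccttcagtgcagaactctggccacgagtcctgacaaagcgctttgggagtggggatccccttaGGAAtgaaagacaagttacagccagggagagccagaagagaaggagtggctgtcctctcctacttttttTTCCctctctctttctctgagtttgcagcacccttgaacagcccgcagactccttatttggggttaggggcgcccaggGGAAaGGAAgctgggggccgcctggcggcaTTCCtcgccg
The Pdgfra window held 4 matches, 1 as GGAA and 3 as TTCC. The Pdgfc window held 7, 4 as GGAA and 3 as TTCC. Among 32851 promoter windows of the same length, 95.98% held the core on either strand, the median number was 3, and 46.28% held 4 or more. The longer sequence CCGGAAGT was found in neither window on either strand, and in 3.887% of all windows. No promoter entry was available for Pdgfb or Pdgfrb, whose means were higher in the Ets2-deleted group. Each entry for Pdgfa, whose mean was higher by 0.13 in the Ets2-deleted group, held 4 core matches, and the entry for Pdgfd held 3. These matches are letters in a window and were not tested as binding sites. The loxP allele was to be lost in fibroblasts, and the RNA came from CD31-sorted cells. The probe set that stood for Ets2 differed by 0.02 in these cells, and recombination of the allele in them was not measured. Whether Ets2 acts on these promoters was not tested.

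Pdgfb encodes the B chain, the ligand by which endothelial cells recruit pericytes. Its signal was 10.28, 9.40 and 9.77 in Ets2-deleted cells and 9.72, 9.55 and 8.70 in control cells. Ets2-deleted replicate 1 was the highest and control replicate 3 the lowest, while the other 4 arrays were interleaved. The means were 9.82 ± 0.44 and 9.32 ± 0.55 (SD, n = 3 each), a difference of 0.49 (SE 0.33, 95% interval −0.28 to 1.27) or 1.41-fold. The limma p was 0.175 unadjusted and 0.9999 adjusted, and the two-sided exact permutation p was 0.4. Without control replicate 3 the difference was 0.18, and without Ets2-deleted replicate 2 it was 0.70. The second probe set of Pdgfb gave 8.38, 8.08 and 8.32 in Ets2-deleted cells and 8.33, 8.05 and 7.53 in control cells. It again had control replicate 3 lowest, differed by 0.29 (SE 0.22), and differed by 0.07 without that array.

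Among 18193 genes, 1.143% had a difference as high as that of Pdgfb or higher. Its range over the 6 arrays was 1.58, against a median range of 0.58 over all genes. Control replicate 3 was also the lowest array for the summed endothelial markers, whose mean level was 12.53, 12.17 and 12.51 in Ets2-deleted cells and 12.41, 12.35 and 11.97 in control cells. Of the 10 endothelial genes, 9 had a higher and 1 a lower mean in the Ets2-deleted group, with a median difference of 0.13. Taken relative to this level, Pdgfb differed by 0.33 (0.16 without control replicate 3), with 0.50, −0.02 and 0.02 in Ets2-deleted cells and 0.06, −0.04 and −0.52 in control cells as deviations from the overall mean. The part of endothelial content and of RNA quality in the Pdgfb values was not tested. In RNA from sorted populations, fewer cells of a type and less RNA per cell cannot be told apart.

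Pdgfa encodes the A chain, a ligand of PDGFRα. It measured 12.12, 11.67 and 12.18 in Ets2-deleted cells and 11.67, 11.80 and 12.10 in control cells. The lowest array of each group stood at 11.67, and the groups overlapped over nearly their whole span. The means were 11.99 ± 0.28 and 11.86 ± 0.22, a difference of 0.13 (SE 0.20, interval −0.33 to 0.59), with a limma p of 0.532 unadjusted and 0.9999 adjusted. A second, dimmer probe set differed by −0.05. Pdgfa had the narrowest range of the family over the arrays, 0.51.

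Pdgfc encodes a latent ligand that binds PDGFRα once cleaved. The values were 11.52, 11.91 and 12.29 in Ets2-deleted cells and 12.28, 12.15 and 11.95 in control cells. The Ets2-deleted arrays held both the lowest and the highest value of the 6. The mean was 11.91 ± 0.39 in Ets2-deleted cells, 86.0% of the control level, and 12.12 ± 0.17 in control cells, a difference of −0.22 (SE 0.22, interval −0.73 to 0.30; limma p 0.352 unadjusted, 0.9999 adjusted). Leaving out Ets2-deleted replicate 1 brought it to −0.02. The second probe set gave −0.28, with the arrays in the same order within each group.

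Pdgfd encodes a latent ligand of PDGFRβ. It was measured at 12.30, 12.04 and 12.25 in Ets2-deleted cells and at 12.46, 12.07 and 11.91 in control cells. Both extremes belonged to the control group, so that the Ets2-deleted arrays lay within its range. The means were 12.20 ± 0.14 and 12.15 ± 0.28, a difference of 0.05 (SE 0.18, interval −0.37 to 0.48; limma p 0.783 unadjusted, 0.9999 adjusted), whose sign turned to −0.07 without control replicate 3. A second probe set differed by 0.42 (SE 0.28) and by 0.12 without that array, on which it read 6.47, against 7.23 to 7.71 on the other 5. The remaining probe set lay below the median signal and differed by −0.10.

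**Figure D1:**
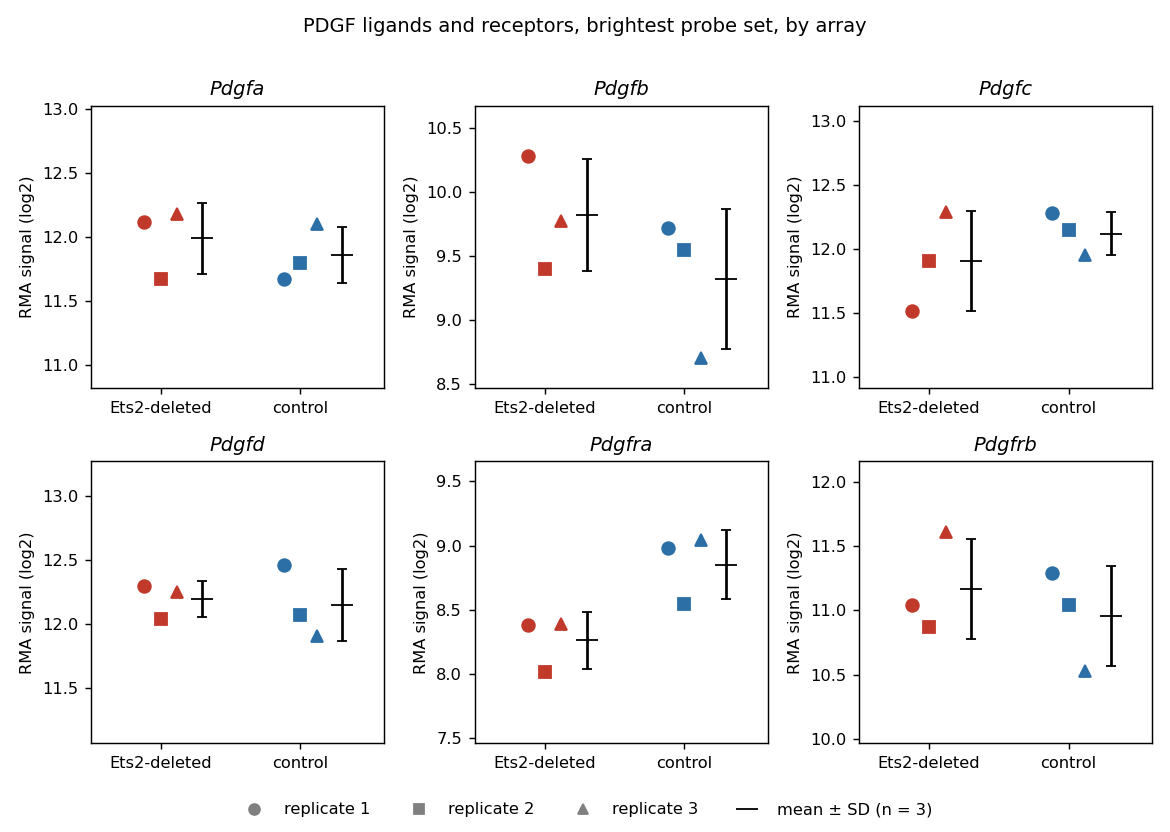
Log2 RMA signal of the 6 PDGF genes (brightest probe set) on each array, Ets2-deleted left and control right; marker shapes give the replicate number, and bars are the mean ± SD of 3 arrays. Pdgfra has all Ets2-deleted points (8.01 to 8.39) below the control points (8.54 to 9.04), and the groups overlap in the other 5 panels.

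Pdgfra encodes PDGFRα, the receptor carried by fibroblasts. Its signal was 8.38, 8.01 and 8.39 in Ets2-deleted cells and 8.98, 8.54 and 9.04 in control cells. The highest Ets2-deleted array stayed below the lowest control array, and replicate 2 was the lowest of its group in both. The mean was 8.26 ± 0.22 in Ets2-deleted cells, 66.4% of the control level, and 8.85 ± 0.27 in control cells. The difference of −0.59 (SE 0.19, interval −1.04 to −0.14) had a limma p of 0.0176 unadjusted and 0.9999 adjusted. The two-sided exact permutation p was 0.1, the smallest that 3 against 3 arrays allow. The difference stayed between −0.75 and −0.47 with any 1 array left out, and was −0.30 with limma's array weights. The unadjusted limma p did not stay under 0.05. It ranged from 0.0084 to 0.0571 with 1 array left out and was 0.119 with array weights. Among all genes, 1.325% had a difference as low or lower.

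The other probe sets of Pdgfra carried little signal. One read 5.85, 6.53 and 5.60 in Ets2-deleted cells and 5.89, 6.69 and 6.16 in control cells, a difference of −0.25. The other read 5.57 to 5.64 in Ets2-deleted cells and 5.43 to 5.77 in control cells, a difference of 0.03. Both lay below the median signal of 7.03 and overlapped between the groups. The mean over all 3 probe sets differed by −0.27.

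Fibroblast markers had lower means beside Pdgfra. All 14 genes of the fibroblast list had lower means in the Ets2-deleted group, with a median of −0.45 against 0.00 over all genes. Of the 14, 5 lay wholly below the control arrays, as did 2.70% of all genes. Their mean level was 9.01, 8.95 and 8.79 in Ets2-deleted cells and 9.68, 9.25 and 9.32 in control cells, a range of 8.79 to 9.01 against 9.25 to 9.68. Among the defining collagens and matrix genes, Col1a1 differed by −0.38 without overlap and Dpt (dermatopontin) by −0.72 with overlap, and none of the fibroblast list passed the adjusted test in limma (5 had an unadjusted p under 0.05, against 1.79% of all genes). Relative to the fibroblast level, Pdgfra was at −0.02, −0.33 and 0.21 in Ets2-deleted cells and −0.09, −0.09 and 0.32 in control cells, a difference of −0.09 with overlap (exact permutation p 0.7, −0.22 to 0.05 with 1 array left out). The part of fibroblast content in the Pdgfra values was not tested. Macrophage markers had lower means as well, in 10 of 10 genes (median −0.73), at a mean level of 8.56 to 9.13 in Ets2-deleted and 9.27 to 9.88 in control cells. Of these 10, 5 did not overlap and 5 had an unadjusted p under 0.05, and none passed after adjustment in limma. The study had already listed Col14a1 and Ogn of the fibroblast list and C1qb of the macrophage list as lower, from these same arrays. They differed by −1.16, −1.02 and −1.30, Col14a1 without overlap. The counts of both lists are therefore not independent of the study's result. Adgre1, a defining macrophage marker, differed by −0.91 with overlap. All 4 leukocyte markers had lower means with overlap, Ptprc (CD45) by −0.43. Platelets, which store PDGF, were followed by 6 genes whose mean level was 6.69 to 7.23 in Ets2-deleted and 6.90 to 7.30 in control cells, with 5 lower and 1 higher mean and Pf4 (platelet factor 4) differing by −0.21.

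Pdgfrb encodes PDGFRβ, which marks pericytes and vascular smooth muscle. It gave 11.04, 10.87 and 11.61 in Ets2-deleted cells and 11.29, 11.04 and 10.53 in control cells. Ets2-deleted replicate 3 was the highest and control replicate 3 the lowest, with the others mixed. The means were 11.17 ± 0.39 and 10.96 ± 0.39, a difference of 0.22 (SE 0.27, interval −0.41 to 0.84; limma p 0.439 unadjusted, 0.9999 adjusted). Without Ets2-deleted replicate 3 the difference was 0.00. The second probe set gave 10.61, 10.46 and 11.06 in Ets2-deleted cells and 10.79, 10.42 and 9.82 in control cells, a difference of 0.37 (SE 0.28) that was 0.10 without control replicate 3.

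Mural cell markers were measured beside Pdgfrb. Of the 12 mural genes, 10 had higher and 2 lower means in the Ets2-deleted group, with a median of 0.13. The 1 of 12 without overlap, near the share of all genes (3.36% wholly above, 2.70% wholly below), was Tagln (transgelin, a smooth muscle protein), at 11.75, 11.95 and 12.19 in Ets2-deleted cells and 11.73, 11.42 and 10.87 in control cells. Rgs5, a pericyte marker, differed by 0.07 and Cspg4, the NG2 proteoglycan of pericytes, by −0.22. The Cspg4 difference became 0.07 without control replicate 3, and its other probe set differed by 0.11. The list's mean level was 9.99 to 10.13 in Ets2-deleted and 9.64 to 10.06 in control cells, and Pdgfrb relative to it differed by 0.05, which became −0.21 without control replicate 3.

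**Figure D2:**
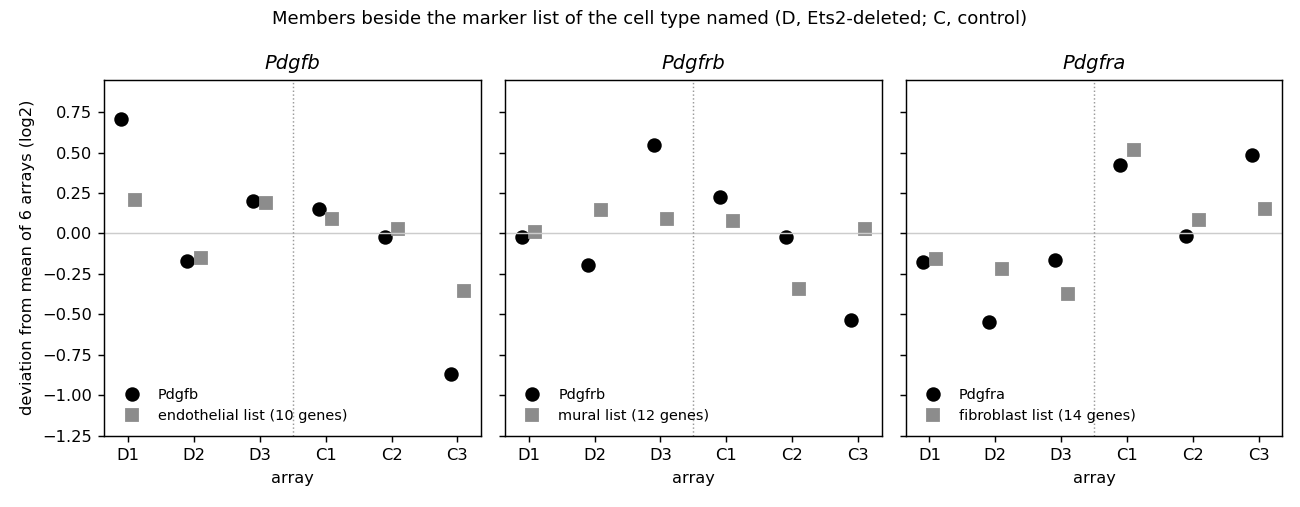
Deviation of Pdgfb, Pdgfrb and Pdgfra from their mean over the 6 arrays (log2, circles) beside that of the marker list of the cell type named in each legend (squares), Ets2-deleted arrays D1 to D3 left of control arrays C1 to C3. Pdgfra and the fibroblast list are both lower on all Ets2-deleted arrays than on any control array, and Pdgfb and the endothelial list are both lowest on control replicate 3.

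The probe sets of a gene gave the same sign for Pdgfb, Pdgfc and Pdgfrb and mixed signs for Pdgfa, Pdgfd and Pdgfra. Of the 14 probe sets, 11 lay above the median signal and 1, the brightest of Pdgfra, had an unadjusted p under 0.05. The median 95% interval over all probe sets, which is not adjusted for their number, reached 0.45 to either side of the estimate. The intervals of Pdgfa, Pdgfb, Pdgfc, Pdgfd and Pdgfrb held values of both signs. With 3 arrays per group, no probe set passed the adjusted test in limma, whatever the size of its difference.

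**Figure D3:**
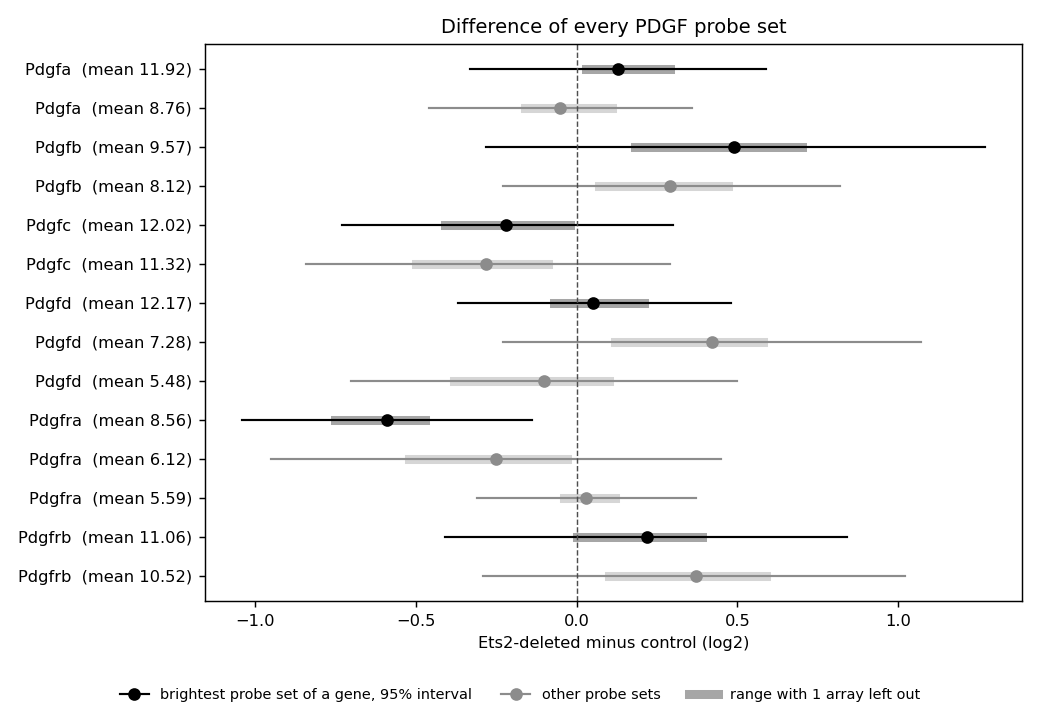
Ets2-deleted minus control difference (log2) of all 14 PDGF probe sets, with the mean signal of each after its name; thin lines are 95% intervals and thick bars the range with 1 array left out. Only the brightest Pdgfra probe set (−0.59, interval −1.04 to −0.14) has an interval that leaves out 0.

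Because a ligand acts through its receptor, the log2 ratio of each ligand to its main receptor was also taken on each array, centered on its mean. These pairs were chosen after the values of the single genes had been seen, and each ratio reuses those values. The Pdgfa to Pdgfra ratio was 0.37, 0.29 and 0.42 in Ets2-deleted cells and −0.68, −0.11 and −0.30 in control cells. It was positive on every Ets2-deleted array and negative on every control array, a difference of 0.72 (0.56 to 0.85 with 1 array left out, exact permutation p 0.1, the smallest possible). The Pdgfc to Pdgfra ratio differed by 0.37 and the Pdgfb to Pdgfrb ratio by 0.28, both with overlap (exact permutation p 0.3 and 0.4). The Pdgfb to Pdgfrb difference was −0.02 without Ets2-deleted replicate 1. The Pdgfd to Pdgfrb ratio differed by −0.17 (p 0.7). The means of Pdgfb and Pdgfrb were both higher in the Ets2-deleted group, and those of Pdgfa and Pdgfra differed in opposite directions.

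Further genes of PDGF signaling were read from a list ordered by role. Of 47 listed genes 41 were measured, and 25 had a lower and 16 a higher mean in the Ets2-deleted group, with differences of −0.60 to 0.45 and a median of −0.03. None had an adjusted or an unadjusted limma p under 0.05. In 3 genes, Pdgfrl, Stat5a and Map2k1, the Ets2-deleted arrays lay wholly below the control arrays, and in 0 wholly above, against 2.70% and 3.36% of all genes. Over both directions this share is near that of all genes, and nothing particular to the pathway is read from it. Pdgfrl, which encodes a protein resembling the receptor's extracellular part, measured 8.24, 8.13 and 8.37 in Ets2-deleted cells and 8.52, 8.58 and 8.52 in control cells, a difference of −0.30 (SE 0.13). Stat5a, a transcription factor activated by receptor kinases, differed by −0.25, and Map2k1, the kinase MEK, by −0.18.

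Proteases that process PDGF showed differences of both signs. Plat, tissue plasminogen activator, which activates PDGF-C, measured 9.73, 9.33 and 9.65 in Ets2-deleted cells and 9.50, 9.08 and 9.18 in control cells, a difference of 0.31 (SE 0.18) with overlap. The other probe set of Plat differed by 0.10. Pcsk5, a proprotein convertase, differed by −0.46 (SE 0.30), and by −0.18 without control replicate 3. St14 (matriptase) differed by −0.15, and Plau (urokinase), which activates PDGF-D, by −0.03 at a signal below the median. The other probe set of Plau, dimmer still, differed by 0.30. Of the 6 proteases, 4 had lower and 2 higher means.

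Among the partners of the receptors, 4 of 5 had lower means, with a median of −0.22. Lrp1, an endocytic receptor that binds PDGFRβ, had the largest difference of the pathway list in size. It measured 9.01, 8.28 and 8.43 in Ets2-deleted cells and 8.71, 8.61 and 10.19 in control cells. That value rested on control replicate 3, and the difference of −0.60 (SE 0.43) was −0.09 without it. Nrp1 (neuropilin 1), a co-receptor, differed by −0.02. Of 20 adaptors and effectors 11 had lower and 9 higher means, and of 10 negative regulators 6 had lower and 4 higher. The highest difference on the list was that of Cbl, a ubiquitin ligase that sends receptors to degradation, at 0.45 (SE 0.64, 0.01 to 1.12 with 1 array left out), followed after Plat by Ptpn2, a phosphatase of PDGF receptors, at 0.19 (SE 0.16). The other, dimmer probe sets of Cbl differed by −0.03 and 0.14.

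**Figure D4:**
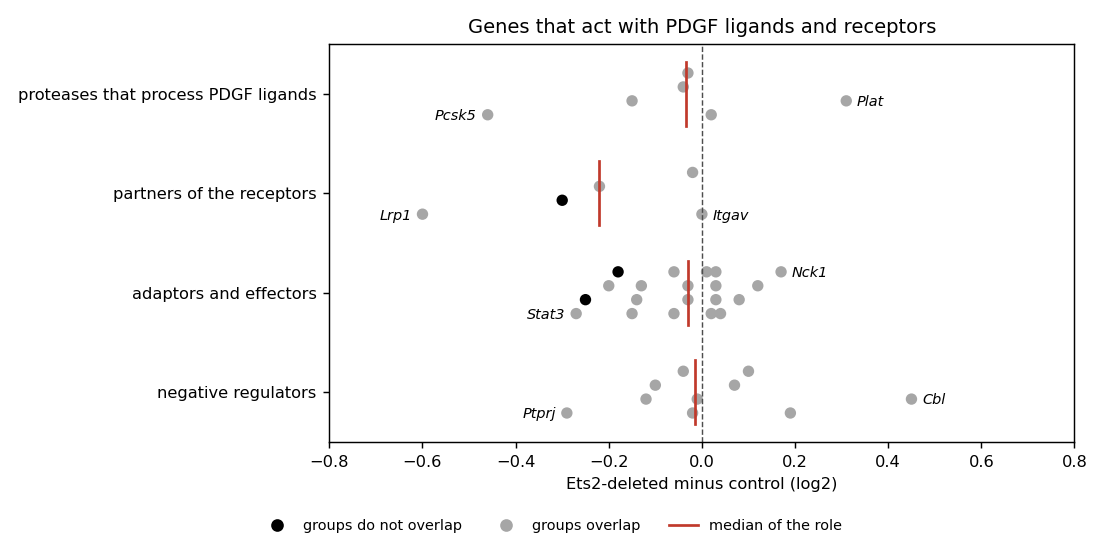
Ets2-deleted minus control difference (log2) of the 41 measured genes that act with PDGF, 1 point per gene grouped by role, with the role's median as a red line and the outermost genes named; black points are the 3 genes whose groups do not overlap. The points lie between −0.60 (Lrp1) and 0.45 (Cbl), with medians between −0.22 and −0.01.

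The log2 values of a gene over the 6 arrays were also compared between genes by Pearson correlation. This was a description without a test, among 11287 genes with a signal at or above the median. With so many genes and 6 arrays, high correlations arise readily, and arrays of one group share that group's level. Pdgfra was most like Cry1 (a circadian repressor, Pearson r 0.987), C5ar1 (the complement C5a receptor of myeloid cells, 0.980) and Pag1 (a membrane adaptor, 0.976), which differed by −0.13, −0.59 and −0.33 between the groups. For Pdgfb the 3 nearest genes were Agps, Usp46 and Usp47 (r 0.994 to 0.995), and for Pdgfrb they were Rac1, Gpcpd1 and Ccnl1 (r 0.994 each). Pdgfa was nearest to Mbip, Rassf2 and Slc2a1 (0.974 to 0.994), Pdgfc to Shprh, Zfp2 and Nhlrc2 (0.986 to 0.991), and Pdgfd to Uggt2, Alg2 and Katnbl1 (0.985 to 0.994). Within the family, r was 0.773 between Pdgfb and Pdgfd, 0.744 between Pdgfd and Pdgfrb and 0.652 between Pdgfb and Pdgfrb, all 3 of which were lowest on control replicate 3, and −0.414 between Pdgfb and Pdgfra.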

How the data were processed

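RNA was measured in 6 samples of CD31-sorted mammary endothelial cells, 3 Ets2-deleted and 3 control, on Affymetrix mouse expression arrays. The log2 values deposited by the authors came from RMA (Robust Multichip Average). RMA corrects for background, brings the arrays to a common distribution and combines the probes of a set into 1 value, and it narrows differences of dim probe sets. The RMA version was not given in the sources used here. Values spanned 2.31 to 14.9, array medians lay at 7.02 to 7.07, and no scaling was added.

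After 64 control probe sets were left out of 45101, limma (version 3.58.1 in R 4.3.3; lmFit and eBayes) was fitted to 45037, with Benjamini-Hochberg adjustment over all of them and no filter. The platform annotation gave 34945 of them a single gene, and 34741 of these were matched to RefSeq. The fit was tested on simulated data. The members and lists were chosen with earlier results of these data known. The genes named were the 6 members, the 3 pathway genes with the largest difference in each direction, Nrp1, Lrp1, Plat, Plau and St14, the 3 genes nearest to each member, and defining markers. Pathway genes counted as not overlapping, Tagln, Col14a1, Ogn and C1qb are named besides. The number of arrays limits the precision.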

Additional observations from a re-analysis of the deposited data

How the results depend on the processing

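Settings tried in turn were leaving out probe sets under the median signal, a robust and trended prior, array weights, centering, a further quantile normalization, a gene mean over probe sets, the replicate block and leaving out each array. No member passed an adjusted p of 0.05 in limma under any of these, and no pathway gene did under those run for the pathway list, which leave out the gene mean. Over the differences of the 6 genes and the pathway count, 3 of 118 alternative values changed sign. Over the other probe sets of the members 6 of 117 did, and over marker levels, members relative to marker lists and ligand to receptor ratios 12 of 144 did. Not all of these values were free to change sign. The pathway count was 0 in every setting. The signal filter and the robust and trended prior leave a probe set's difference unchanged. So do unmoderated equal-variance and unequal-variance tests, which were counted too. The rule of more than 2-fold with an unadjusted p under 0.05, counted for the 6 genes, also leaves it unchanged. With the number before the point of the sample titles' codes as a fixed replicate block, Pdgfd differed by −0.09 and Pdgfrb by −0.21 (0.22 without the block). The second probe set of Pdgfrb then differed by −0.07 (0.37 without it) and that of Pdgfa by 0.11, and array weights gave the last 0.05. Control replicate 3 and Ets2-deleted replicate 3 share their number with no other array. Under the fixed block they add nothing to a difference, which rests on replicates 1 and 2 of each group. With 1 array left out, Pdgfd ranged from −0.07 to 0.21, the second Pdgfa probe set from −0.16 to 0.11, the third Pdgfd probe set from −0.38 to 0.10 and the dimmest Pdgfra probe set from −0.04 to 0.12. The cause of the other sign changes was not tested. Pdgfra kept its sign throughout, at −0.57 with the fixed replicate block, −0.30 with array weights, which gave control replicate 2 a weight of 8.32 and the others 0.38 to 0.99, and −0.27 as a mean of its probe sets. Pdgfb differed by 0.20 with the fixed replicate block and 0.31 with array weights, and Pdgfc by −0.50 with the fixed block. No source says what this number marks. The shared numbers join only 2 pairs of arrays, whose deviations from the group means correlated at 0.166 and −0.017, so the samples share a number and no pairing is taken from it. With 3 arrays per group, the signal of dim probe sets and the mixed cell content limit what could be detected.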
